A study of Homo sapiens with 8 samples.

Results

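The 10 genes described here encode secreted proteins of the extracellular matrix: the fibrillar collagen chains COL1A1, COL1A2, COL3A1, COL5A1 and COL5A2, the basement membrane collagen chains COL4A1 and COL4A2, and the glycoproteins FN1 (fibronectin), SPARC and THBS1 (thrombospondin-1). They were taken by name as a list of matrix genes whose mRNAs are translated at the endoplasmic reticulum, and all 10 were among the 26902 entries of the expression table, 18783 of which are protein-coding. They were measured in U2OS, a human osteosarcoma cell line, with overexpressed QKI7 (one of the protein isoforms made from QKI, which binds RNA) or with an empty vector. Every group had received 0.5 mM sodium arsenite, an agent of oxidative stress, for the last 1 h before harvest, so no value here separates the effect of arsenite. The 4 groups held 2 libraries each: ribosome footprints of QKI7 cells, ribosome footprints of vector cells, input RNA of QKI7 cells and input RNA of vector cells. Footprints are the RNA fragments that ribosomes protect from nuclease, here 17 to 34 nt long, and input RNA is total RNA depleted of ribosomal RNA. The labels name neither a clone of the line nor separate cultures for the replicate libraries, so p-values measure only how these libraries scatter, which may be technical scatter.

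Fibrillar collagens are secreted as procollagens. Each chain enters the endoplasmic reticulum while it is translated, its prolines and lysines are hydroxylated there, and chains wind into a triple helix before export. Type I collagen is the main protein of bone matrix and normally joins COL1A1 chains with a COL1A2 chain, type III is its partner in soft tissue, and type V starts and limits type I fibrils. COL4A1 and COL4A2 form the common type IV network of basement membranes. Fibronectin links cells to the matrix through integrins, SPARC (osteonectin) binds collagen in bone, and thrombospondin-1 is a matricellular protein that binds cell receptors and latent TGF-beta.

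In the GRCh38.p14 annotation of RefSeq, COL1A1 lies at chr17:50184101-50201631, COL1A2 at chr7:94394895-94431227, COL5A1 at chr9:134641803-134844843 and THBS1 at chr15:39581079-39599466. COL3A1 (chr2:188974373-189012746) and COL5A2 (chr2:189031898-189441111) are neighbours 19151 bases apart. FN1 is at chr2:215360865-215436068 and SPARC at chr5:151661096-151686915. COL4A1 (chr13:110148963-110307157) and COL4A2 (chr13:110307284-110513209) are transcribed away from each other from starts separated by 126 bases. That interval is shown because both genes share it, and its part in the levels below was not tested. Capitals mark a CCAAT box and a GC box (GGGCGG), the motifs found in it.

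COL4A1 to COL4A2 interval, chr13:110307158-110307283, plus strand: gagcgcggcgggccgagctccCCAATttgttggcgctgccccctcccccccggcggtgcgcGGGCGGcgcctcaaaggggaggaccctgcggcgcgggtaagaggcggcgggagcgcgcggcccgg

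The interval was 80.2% G and C, above 90% of 15843 protein-coding promoters of RefSeq cut to the same length. Both strands were searched for 3 motifs. It held 1 copy of GGGCGG, which 47.1% of those promoters hold, and 1 copy of CCAAT, which 24.2% hold. TATAAA, held by 5.96%, was not in this window. These matches describe letters only and show no binding.

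Levels are given as mRNA-scaled TPM: the deposited TPM (a share of transcripts corrected for their length) of the protein-coding entries, rescaled to sum to 1000000 in each library. Protein-coding entries took 0.687% to 0.711% of the deposited TPM in footprint libraries and 3.73% to 4.53% in inputs, which is why the rescaling was done. With 2 decimals deposited, 1 rounding step was worth 1.41 to 1.46 mRNA-scaled TPM in footprints and 0.221 to 0.268 in inputs. TPM keeps no read depth, so the reads behind a value are unknown. QKI itself averaged 3981 ± 71.7 mRNA-scaled TPM in QKI7 footprints against 86.6 ± 8.86 in vector footprints, and 37930 ± 1008 in QKI7 inputs against 83.4 ± 3.81 in vector inputs (SD, n = 2 each). This check of the construct matched the labels. RELN took 9.16% and 9.28% of the mRNA share of QKI7 footprints against 1.23% and 1.34% of vector footprints. In each input library RELN took only 4.71e-05% to 9.98e-05%, and its part in the results below was not tested. Replicate libraries correlated at Pearson r = 0.925 and 0.934 across the 9548 genes tested in footprints and at 0.985 and 0.986 in inputs. Of the lineage markers, VIM (mesenchymal) averaged 1796 and 2597 mRNA-scaled TPM in QKI7 and vector inputs. The mature bone markers IBSP and BGLAP stayed at or under 6.03, and PTPRC of blood cells under 1, in the means of both input groups.

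COL4A2, COL1A1, COL4A1, COL5A1, SPARC, THBS1 and FN1 were each above 94% of protein-coding entries in both input groups, whereas COL5A2 was above 78.0% and 74.8%, COL3A1 above 38.5% and 32.8% and COL1A2 above 19.0% and 26.0% in QKI7 and vector inputs. Together the 10 genes took 0.0961% and 0.0954% of the mRNA share of QKI7 footprints and 0.0848% and 0.0812% of vector footprints. In inputs they took 0.318% and 0.333% in QKI7 cells and 0.306% and 0.299% in vector cells. The summed share of each footprint library thus lay below each input library, and each QKI7 library above each vector library of its kind. The 7 collagen genes alone made 0.0345% and 0.0313% of QKI7 footprints against 0.0180% and 0.0173% of vector footprints, and 0.228% and 0.242% of QKI7 inputs against 0.220% and 0.214% of vector inputs. SPARC and THBS1 made up 55.2% and 57.7% of the 10 genes' sum in QKI7 footprints and 69.6% and 66.6% in vector footprints, while in every input library they made 20.7% to 22.2% of it.

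**Figure D1:**
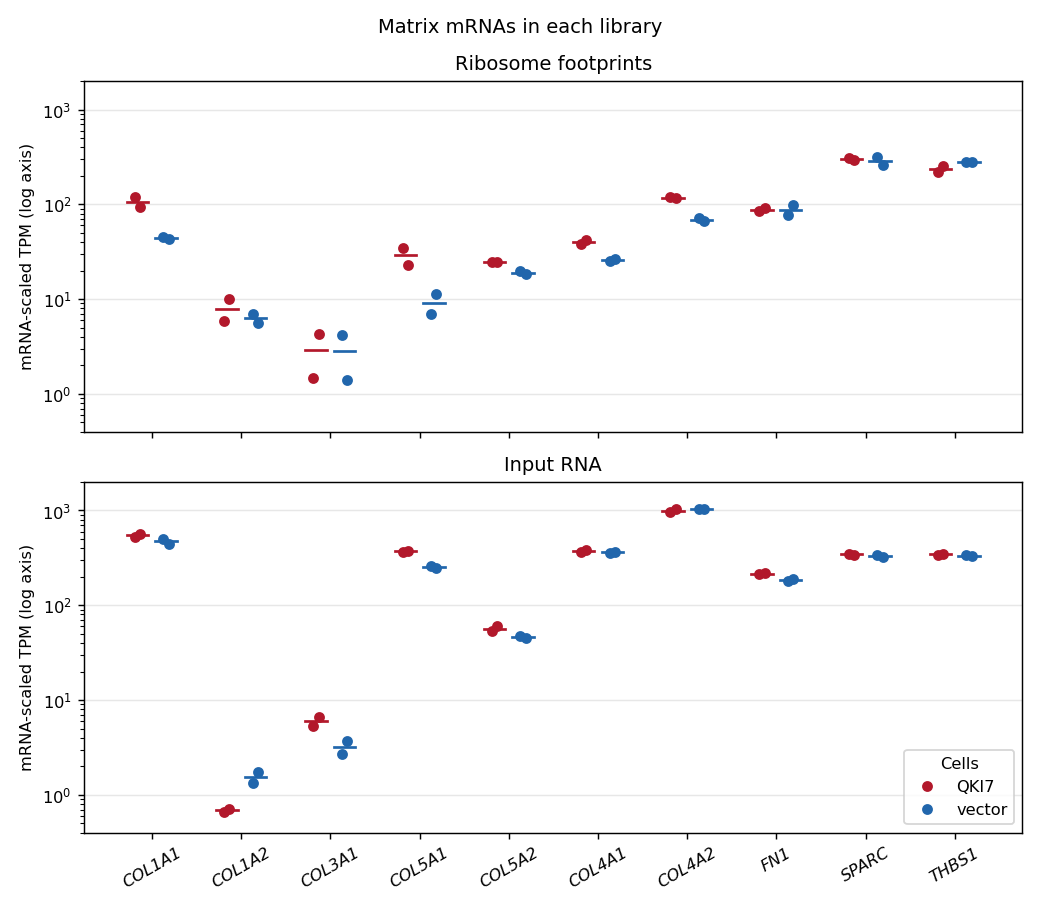
Level of each matrix gene in each library, as mRNA-scaled TPM on a log axis, in ribosome footprints (top) and input RNA (bottom). Points are libraries (2 per group, QKI7 left of vector) and bars are group means. SPARC and THBS1 stand highest in footprints, COL4A2 in inputs, and COL1A2 and COL3A1 are lowest in all 4 groups.

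The order of levels differed between the library types. In QKI7 footprints SPARC was highest at 302 ± 8.93 mRNA-scaled TPM, followed by THBS1 at 238 ± 23.4, COL4A2 at 118 ± 2.11, COL1A1 at 107 ± 19.4 and FN1 at 88.2 ± 3.28 (SD, n = 2 each). The libraries of COL4A2 and COL1A1 overlapped there, as did those of COL5A1 and COL5A2. In vector footprints SPARC (287 ± 36.2) and THBS1 (278 ± 0.681) overlapped, and FN1 (88.0 ± 14.8), COL4A2 (69.0 ± 4.06) and COL1A1 (44.4 ± 1.05) came next without overlap. The collagens thus stood below FN1 in vector footprints, whereas COL4A2 and COL1A1 stood above it in QKI7 footprints.

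In QKI7 inputs the highest was COL4A2 at 996 ± 45.6 mRNA-scaled TPM, above 99.6% of protein-coding entries, then COL1A1 at 545 ± 31.1 and COL4A1 at 372 ± 15.2. In vector inputs COL4A2 was at 1031 ± 6.13, COL1A1 at 471 ± 38.5 and COL4A1 at 363 ± 3.89. The libraries of these 3 genes did not overlap with each other in either input group. COL5A1 came next in QKI7 inputs, where it overlapped with COL4A1, and SPARC overlapped with THBS1 in both input groups. COL5A2 was the eighth of the 10 genes in both input groups, at 56.8 ± 4.66 in QKI7 cells and 46.3 ± 1.62 in vector cells.

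COL1A2 and COL3A1, the partner chain of COL1A1 and the type III chain, had low values in all libraries, and neither reached the mean of 10 mRNA-scaled TPM over the 8 libraries required for the test. COL1A2 had 0.04 and 0.07 deposited TPM in QKI7 footprints and 0.05 and 0.04 in vector footprints. In inputs it had 0.03 and 0.03 in QKI7 cells and 0.05 and 0.07 in vector cells. Its footprint libraries overlapped, and both of its QKI7 inputs lay below both vector inputs, by differences of a few rounding steps. COL3A1 had 0.01 and 0.03 deposited TPM in QKI7 footprints, 0.03 and 0.01 in vector footprints, 0.24 and 0.28 in QKI7 inputs and 0.10 and 0.15 in vector inputs. Its footprint libraries overlapped, and its QKI7 inputs lay above its vector inputs. COL1A1 exceeded COL1A2, per transcript length, by 790 and 803 times in QKI7 inputs and 372 and 254 times in vector inputs. In footprints it did so by only 20.8 and 9.29 times in QKI7 cells and 6.4 and 7.75 times in vector cells. All of these ratios divide by COL1A2 values of 0.03 to 0.07 deposited TPM, so rounding to 2 decimals makes them imprecise. In bulk libraries such as these, fewer cells that express a gene and less RNA per cell cannot be told apart.

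COL4A1 and COL4A2, whose products assemble together, kept a near constant ratio. COL4A2 over COL4A1 was 3.15 and 2.79 in QKI7 footprints and 2.83 and 2.47 in vector footprints. In inputs it was 2.67 and 2.68 in QKI7 cells and 2.85 and 2.83 in vector cells. The ratio of COL5A1 to COL5A2 varied far more: it was 1.41 and 0.941 in QKI7 footprints and 0.357 and 0.615 in vector footprints, but 6.88 and 6.19 in QKI7 inputs and 5.45 and 5.43 in vector inputs. The value of COL5A1 thus exceeded that of its partner chain COL5A2 in every input library and in 1 of the 4 footprint libraries. In QKI7 footprint replicate 2 the deposited values, 0.16 TPM for COL5A1 and 0.17 for COL5A2, differed only in the last decimal.

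Footprints against input RNA within the same cells place mRNAs among each other by their footprint signal relative to their abundance. The collagen mRNAs COL5A1, COL4A2, COL4A1 and COL1A1 lay below the median of all genes, with 6.78%, 15.5%, 13.2% and 31.9% of tested genes lower still in QKI7 cells and 2.46%, 9.09%, 10.8% and 16.4% in vector cells. SPARC and THBS1 were in the upper part of the range. In QKI7 cells 7 of the 8 tested members were lower in footprints, where limma called 67.7% of all genes lower, and in vector cells 7 of 8, where it called 67.9% lower. No member was called higher, against 14.8% and 15.9% of all genes. Because most genes were called lower, each value is read against the median of all genes, which was -1.63 (log2) in QKI7 cells and -1.74 in vector cells.

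COL5A1 was lowest. It had 34.9 and 23.0 mRNA-scaled TPM in QKI7 footprints against 368 and 372 in QKI7 inputs, a log2 difference of -3.66 (SE 0.25, limma adjusted p = 1.13e-05), with 6.78% of tested genes lower still. In vector cells it had 7.05 and 11.3 in footprints against 258 and 245 in inputs, a log2 difference of -4.67 (SE 0.25, adjusted p = 3.02e-06), with 2.46% of genes lower. The footprint and input libraries were far apart in both cell types. COL4A2 differed by -3.07 in QKI7 cells and -3.88 in vector cells, COL4A1 by -3.20 and -3.75, and COL1A1 by -2.35 and -3.38 (log2, adjusted p at most 5.16e-06). For each of these 4 collagens the fitted difference was more negative in vector cells than in QKI7 cells, a contrast tested below as translation efficiency.

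The other 4 tested members lay above the median of all genes. COL5A2, at -1.17 in QKI7 and -1.24 in vector cells, and FN1, at -1.28 and -1.08, were called lower (log2, limma adjusted p at most 0.000337). THBS1 was called lower by 0.53 and 0.26 on the log2 scale (adjusted p = 0.000699 and 0.0191). SPARC had 309 and 296 mRNA-scaled TPM in QKI7 footprints against 350 and 342 in QKI7 inputs, and 313 and 262 in vector footprints against 343 and 324 in vector inputs. Its log2 differences of -0.19 and -0.22 did not pass the test (adjusted p = 0.0968 and 0.0657) and exceeded those of 76.2% and 74.7% of genes. With median-of-ratios scaling in place of equal sums, the 4 collagens stayed called lower, SPARC and THBS1 were called higher in both cell types and FN1 higher in vector cells, where 35.2% and 37.4% of all genes were called higher and 31.7% and 34.4% lower in QKI7 and vector cells. TPM corrects for transcript length, although footprints come from coding sequence, and the length used for each library type is not known here. These differences therefore place genes among each other and are not ribosomes per mRNA.

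**Figure D2:**
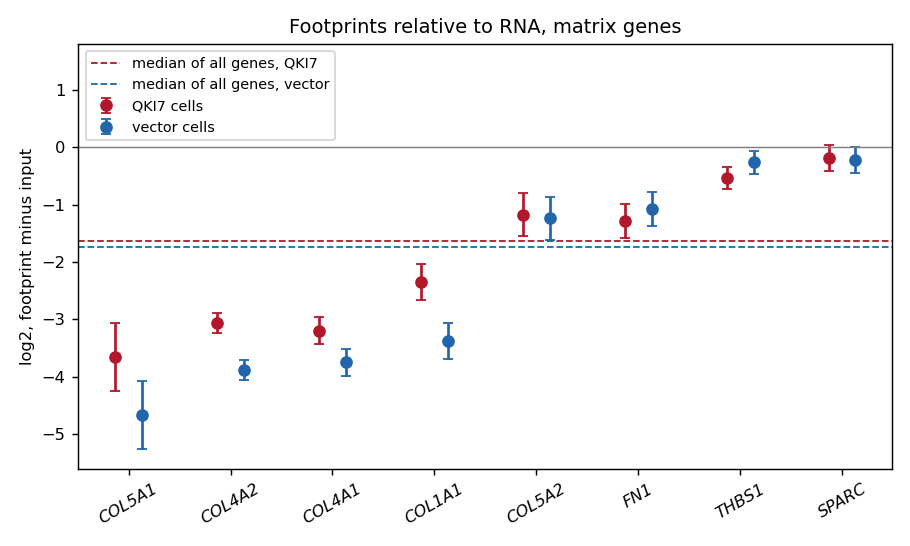
Footprint minus input, log2 of mRNA-scaled TPM plus 1, for the 8 tested matrix genes in QKI7 and vector cells. Points are fitted differences with 95% confidence intervals and dashed lines are the medians of all tested genes. COL5A1, COL4A2, COL4A1 and COL1A1 lie below the medians, the other 4 genes above.

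The comparison of QKI7 with vector footprints asks whether the construct went with more or less ribosome signal on these mRNAs. Footprints of 4 collagens were higher in QKI7 cells: COL5A1 2.96-fold, COL1A1 2.36-fold, COL4A2 1.7-fold and COL4A1 1.51-fold. In this fit of all 8 libraries, 4 of the 8 tested members were called higher, where limma called 12% of all genes higher, and 0 were called lower, where it called 6.1% lower. All 4 calls depended on the input libraries, which share the estimate of spread: in a fit of the 4 footprint libraries alone none of them passed (adjusted p = 0.11 to 0.218), and that fit called 6 genes higher and 5 lower of 9548 (0.0628% and 0.0524%). The median change of the 8 members was 0.47 (log2) and that of all genes tested 0.10.

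COL5A1 had 34.9 and 23.0 mRNA-scaled TPM in QKI7 footprints against 7.05 and 11.3 in vector footprints. The QKI7 libraries lay above the vector libraries without overlap, a log2 change of 1.56 (SE 0.25, 95% confidence interval 0.97 to 2.16, limma adjusted p = 0.00923). As deposited these were 0.24 and 0.16 against 0.05 and 0.08 TPM, and rounding alone bounds the ratio of group means at 2.87 to 3.51. COL1A1 had 121 and 93.4 mRNA-scaled TPM in QKI7 footprints against 45.1 and 43.6 in vector footprints. These did not overlap either, and the log2 change was 1.24 (SE 0.134, interval 0.92 to 1.56, adjusted p = 0.00279), above 92.9% of tested genes.

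The type IV chains changed by smaller amounts. COL4A2 had 119 and 116 mRNA-scaled TPM in QKI7 footprints against 71.9 and 66.1 in vector footprints, a log2 change of 0.77 (SE 0.074, limma adjusted p = 0.0021). COL4A1 had 37.9 and 41.7 against 25.4 and 26.7, which made a change of 0.59 on the log2 scale (SE 0.1, adjusted p = 0.0114). Neither pair overlapped. Leaving out any 1 of the 8 libraries kept the log2 change between 1.26 and 1.87 for COL5A1 and between 1.06 and 1.43 for COL1A1. It stayed between 0.71 and 0.82 for COL4A2 and between 0.52 and 0.66 for COL4A1. Each of these fits still shared its estimate of spread with input libraries, as the main fit did. On the deposited TPM, where the footprint values of these 4 genes all lie under the pseudocount of 1, COL1A1 and COL4A2 were called and COL5A1 and COL4A1 were not (adjusted p = 0.17 and 0.479); 3.6% of all genes were called higher there and 4.6% lower.

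The remaining members were not called. COL5A2, the partner chain of COL5A1, had 24.7 and 24.4 mRNA-scaled TPM in QKI7 footprints against 19.7 and 18.3 in vector footprints, without overlap but short of the threshold (log2 change 0.36, interval -0.02 to 0.73, limma adjusted p = 0.161). FN1 had 85.9 and 90.5 in QKI7 footprints against 77.5 and 98.5 in vector footprints, and SPARC 309 and 296 against 313 and 262; both overlapped, with log2 changes of 0.01 (-0.29 to 0.31) and 0.08 (-0.15 to 0.31). THBS1 went the other way, with 221 and 254 in QKI7 footprints below 278 and 279 in vector footprints (log2 change -0.23, interval -0.42 to -0.03, adjusted p = 0.0982). Without QKI7 footprint replicate 2 it passed the threshold as lower (log2 change -0.33, adjusted p = 0.0243). In all, 5 of the 8 tested members had both QKI7 footprints above both vector footprints, as did 33.6% of all genes, and THBS1 alone had both below, as did 20.1%. An exact permutation test of 2 against 2 libraries cannot go below p = 0.333, so calls rest on the spread that limma shares between genes.

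In input RNA no member was called different between QKI7 and vector cells. Among all genes 0.0838% were called higher and 1.13% lower, and no member passed even an unadjusted p of 0.05. The largest difference was that of COL5A1, with 368 and 372 mRNA-scaled TPM in QKI7 inputs against 258 and 245 in vector inputs. These did not overlap (log2 change 0.55, interval -0.04 to 1.15, limma adjusted p = 0.666). COL5A2 had 53.5 and 60.1 against 47.4 and 45.1, COL1A1 523 and 567 against 499 and 444, and FN1 213 and 218 against 182 and 190, with log2 changes of 0.29, 0.21 and 0.21. These 3 genes and THBS1 also had both QKI7 inputs above both vector inputs, so that 5 of the 8 tested members did, as did 38.4% of all genes.

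COL4A2, COL4A1, SPARC and THBS1 differed in inputs by -0.05, 0.04, 0.05 and 0.04 on the log2 scale, with intervals between -0.23 and 0.28. A fit of the 4 input libraries alone called COL5A1 (adjusted p = 0.00226) and FN1 (adjusted p = 0.0383) higher, where it called 8.36% of all genes higher and 7.57% lower. On the deposited TPM, COL1A1, COL5A1, COL5A2, COL4A1 and FN1 were called higher, where 39.1% of all genes were called higher and 5.48% lower. COL4A2 was 0.13 there and 0.07 when inputs were scaled to the spike-ins, and it was called on no scale. The input and footprint comparisons rest on different libraries, and their difference was tested as follows.

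Translation efficiency here is the QKI7 change in footprints minus the QKI7 change in inputs. COL1A1, with a log2 value of 1.03 (SE 0.19, interval 0.58 to 1.48, limma adjusted p = 0.0411), and COL4A2, with 0.82 (SE 0.105, interval 0.57 to 1.06, adjusted p = 0.0163), were called higher in QKI7 cells. They were 2 of 8 tested members, where 2.48% of all genes were called higher; 0.566% were called lower, with no member among them. COL5A1 had a value of the same size as COL1A1, 1.01, with a wider interval of 0.17 to 1.85 (adjusted p = 0.172), and COL4A1 had 0.55 (adjusted p = 0.0921). The values of COL5A2 (0.07), SPARC (0.03), FN1 (-0.20) and THBS1 (-0.27) had intervals that included 0. Neither call held when any 1 input library was left out (adjusted p = 0.0939 to 0.206), nor on the deposited TPM (adjusted p = 0.851 for COL1A1 and 0.256 for COL4A2), where 3.57% of all genes were called higher and 21.6% lower. COL1A1 was also lost without vector footprint replicate 2 (adjusted p = 0.0508). On the deposited TPM, COL5A1, COL5A2, FN1 and THBS1 were called lower. The deposited footprint values of COL5A1, COL5A2 and FN1, at 0.05 to 0.70 TPM, all lie under the pseudocount of 1, which compresses their footprint changes. Those of THBS1 were 1.52 to 1.98. The part of the pseudocount in these calls was not tested.

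**Figure D3:**
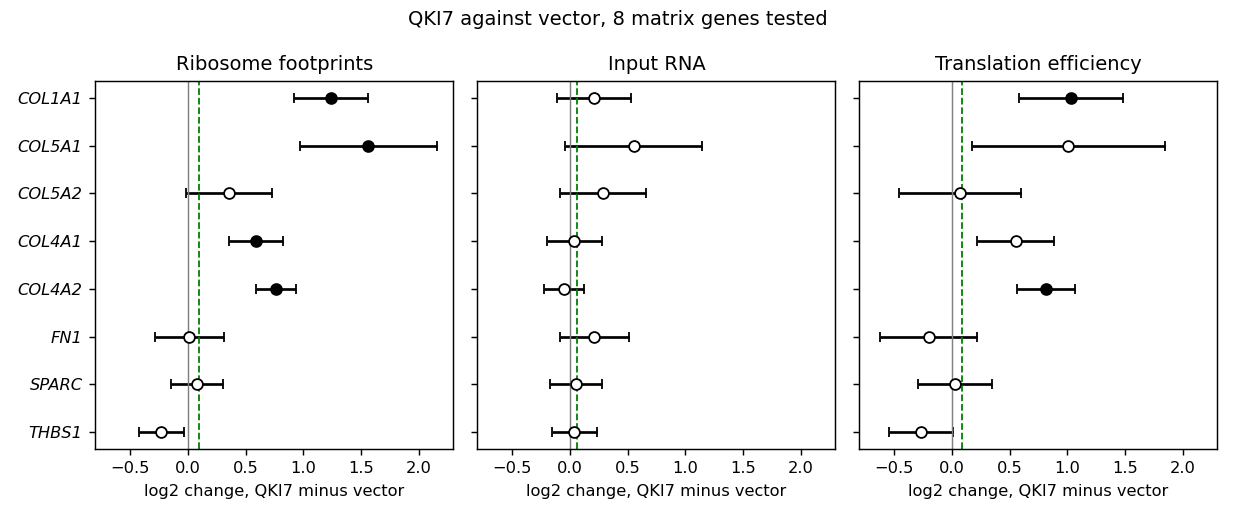
Log2 change, QKI7 minus vector, of the 8 tested matrix genes in footprints, inputs and translation efficiency (footprint change minus input change). Bars are 95% confidence intervals, filled points passed the adjusted threshold of 0.05 in the fit of all 8 libraries, and dashed lines mark the median of all tested genes. COL1A1 and COL4A2 are filled in footprints and in translation efficiency, and no gene is filled in inputs.

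The footprint change of the members moved with their footprint-to-input difference, and so did that of all genes. This description was chosen after the values were seen. All 9548 tested genes were put into 10 bins of equal size, numbered from the lowest footprint minus input, averaged over QKI7 and vector cells. The median footprint change, QKI7 minus vector, was 0.57 (log2) in bin 1, 0.45 in bin 2, 0.39 in bin 3 and 0.26 in bin 4, and -0.10, -0.20 and -0.25 in bins 8, 9 and 10. COL5A1 was in bin 1, COL4A1 and COL4A2 in bin 2, COL1A1 in bin 3, COL5A2 in bin 6, FN1 in bin 7 and SPARC and THBS1 in bin 8. COL5A1 (1.56) and COL1A1 (1.24) were well above the medians of their bins, COL4A2 (0.77) and COL4A1 (0.59) nearer to theirs, and THBS1 (-0.23) below its own. Limma called 23.4%, 21.7% and 20.4% of genes higher in bins 1, 2 and 3. The bins use the same footprint libraries as the change, and the part of this trend in the members' changes was not tested.

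**Figure D4:**
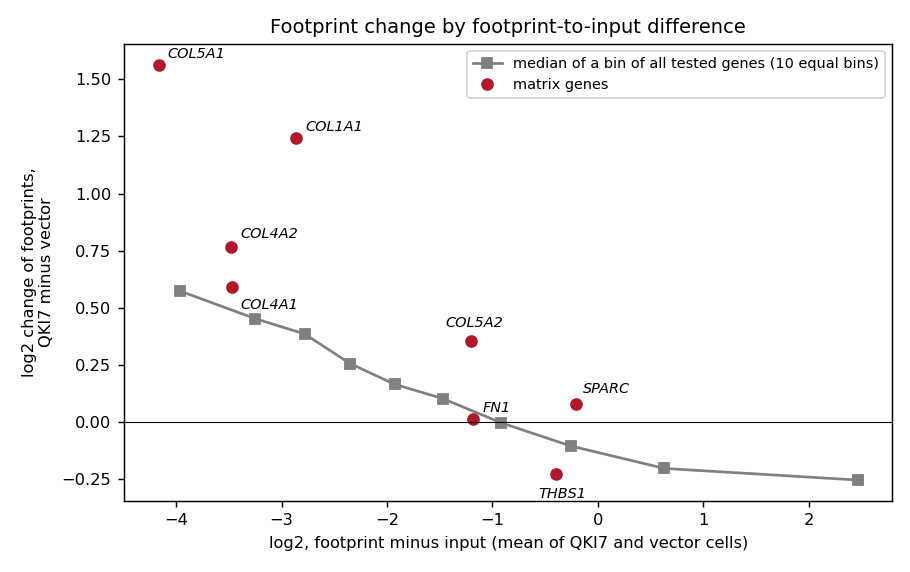
Log2 change of footprints, QKI7 minus vector, against footprint minus input (log2, mean of QKI7 and vector cells). Squares are medians of 10 bins of all tested genes and circles are the 8 tested matrix genes. The medians run from 0.57 at the left to -0.25 at the right; the 4 collagens COL5A1, COL1A1, COL4A2 and COL4A1 lie at the left, above the line.

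Other genes of the matrix pathway were counted from lists chosen with earlier results of these data known. In footprints 5 of 13 tested other collagens were called higher in QKI7 cells, against 12% of all genes, and 0 lower. Among them the type XXVII chain COL27A1 averaged 23.2 ± 4.3 mRNA-scaled TPM in QKI7 footprints against 9.15 ± 0.985 in vector footprints (SD, n = 2 each; log2 change 1.24, limma adjusted p = 0.00464). COL6A2, a chain of the microfibrillar type VI collagen, averaged 132 ± 7.35 against 78.9 ± 18 (log2 change 0.75, adjusted p = 0.0178). COL18A1 (1.52) and COL16A1 (0.91) were also called, as was COL6A3 (0.57), named after its value was seen. COL18A1 had only 2.82 and 1.41 mRNA-scaled TPM in vector footprints, where 1 rounding step was worth 1.41. On the deposited TPM COL27A1, COL6A2 and COL16A1 did not pass (limma adjusted p = 0.335, 0.0541 and 0.795) and COL18A1 was not tested. The median change of these 13 genes was 0.57, near that of the 8 members. Their footprint minus input had medians of -2.73 in QKI7 cells and -3.22 in vector cells. These lie in the ranges of bins 3 and 2 above, where 20.4% and 21.7% of genes were called higher.

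Of 24 tested other matrix glycoproteins and proteoglycans, 9 were called higher in QKI7 footprints and 3 lower, where 12% of all genes were called higher and 6.1% lower. LAMA5, a laminin chain of basement membranes, averaged 20.3 ± 2.23 mRNA-scaled TPM in QKI7 footprints against 6.34 ± 0.989 in vector footprints (log2 change 1.54, limma adjusted p = 0.0034). LTBP3, which binds latent TGF-beta, averaged 13.7 ± 0.896 against 2.11 ± 0.993 (log2 change 2.28), the vector mean within 2 rounding steps of 0. EFEMP2, needed for elastic fibres, changed by 1.60. THBS3 was called too, although it was listed at 0 in 1 of the 2 vector footprint libraries. The 3 lower genes, named after their values were seen, were the laminin chain LAMB3 (-0.87) and the matricellular proteins TNC (-0.71) and CYR61 (-0.41). Among 12 tested matrix receptors the integrin chains ITGB5 (1.52) and ITGA3 (0.74) were higher and the hyaluronan receptor CD44 (-0.78) was lower.

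Genes of the machinery through which collagens pass were counted in footprints against the same shares of all genes, 12% higher and 6.1% lower. For collagen modification and folding the counts, 2 higher and 1 lower of 15, were near those shares. Of these 15 tested genes, FKBP10 (0.91) and P3H3 (0.81) were higher in QKI7 footprints and PPIB, a prolyl isomerase that acts on procollagen, lower (-0.59). PPIB was lower in input RNA as well, at 417 ± 20.7 mRNA-scaled TPM in QKI7 inputs against 639 ± 45.8 in vector inputs (SD, n = 2 each; log2 change -0.61, limma adjusted p = 0.00822). P4HB, a subunit of prolyl 4-hydroxylase, was also lower in inputs (-0.46, adjusted p = 0.0334). Of 30 tested genes for signal recognition and translocation into the endoplasmic reticulum, 0 were higher and 7 lower in QKI7 footprints. Among the lower were DAD1 (-0.76), SRPRA (-0.73), STT3A (-0.70) and SSR4 (-0.63). In inputs 0 of the 30 were called, where only 0.0838% of all genes were called higher and 1.13% lower. The median footprint change of the 30 genes was -0.42. Leaving out 1 library at a time kept DAD1 in 7 of 8 fits, SSR4 in 2 and SRPRA and STT3A in 1 each. Of 14 tested genes of procollagen export 1 was called, SEC23B, a coat protein of export vesicles, which was lower (-1.12).

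Extracellular and regulatory genes were mixed, and their footprint counts stand beside 12% of all genes called higher and 6.1% lower. Of 10 tested genes of extracellular processing, the cross-linking enzyme LOXL4 (1.25) and the protease FURIN (0.71) were higher in QKI7 footprints and the transglutaminase TGM2 lower (-0.42). Of 14 tested proteases and inhibitors CTSK, listed at 0 in 1 vector footprint library, was called higher in QKI7 footprints and PLAUR (-0.62) and TIMP1 (-0.29) lower. MMP3, a stromelysin, was lower in inputs, at 5.41 ± 2.34 mRNA-scaled TPM in QKI7 inputs against 20.3 ± 1.21 in vector inputs (log2 change -1.78, limma adjusted p = 0.017). TNC (-0.78), CTGF (-0.60) and CYR61 (-0.52), matricellular proteins of the glycoprotein list, were lower in inputs too. Of 12 tested TGF-beta signalling genes, SMAD6 (1.81), SMURF2 (0.93), SKIL (0.74) and SMURF1 (0.71), inhibitors of that pathway, were higher in footprints. Leaving out 1 library at a time moved SMAD6 between 1.67 and 1.95 and SMURF2 between 0.51 and 1.35. It moved SKIL between 0.47 and 1.01 and SMURF1 between 0.52 and 0.90. On the deposited TPM SMURF2, SKIL and SMURF1 did not pass (limma adjusted p = 0.194, 0.779 and 0.748) and SMAD6 was not tested. In inputs 0 of the 12 were called, where 0.0838% of all genes were called higher and 1.13% lower.

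In translation efficiency LTBP3 (2.18), ITGB5 (1.59), COL27A1 (1.41), HSPG2 (1.02), AGRN (0.78) and ITGA3 (0.62) were called higher among the listed genes, where 2.48% of all genes were, and 0 lower. Leaving out 1 library at a time kept LTBP3 and AGRN in 3 of 8 fits and each of the other 4 in 4 of 8. On the deposited TPM HSPG2 (adjusted p = 0.0863), AGRN (0.0864), ITGB5 (0.279), COL27A1 (0.332) and ITGA3 (0.577) did not pass, and LTBP3 was not tested there. The 6 input calls named here held in the fit of the input libraries alone (largest adjusted p = 0.0133), a fit that called 1521 genes in all against 116. Leaving out 1 library at a time kept PPIB in 6 of 8 fits, TNC and CYR61 in 4, P4HB and MMP3 in 2 and CTGF in 1, and the largest adjusted p of the 6 over all alternatives was 0.484. None of the 29 footprint calls that the naming rule gave for these lists held in the fit of the footprint libraries alone (adjusted p = 0.0865 to 0.299), as with the 4 collagens, and 11 of the 29 were called in every fit that left out 1 library.

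The genes whose profile over the 8 libraries was most like that of the 3 members most abundant in inputs were PLXNB2 and BAZ1A for COL4A2 (r = 0.9998 and 0.9996), NPHP4 and MYLK2 for COL1A1 (0.9993 and 0.9991) and LUC7L3 and DDX11 for COL4A1 (both 0.9997). PLXNB2 had 97.5 and 93.4 mRNA-scaled TPM in QKI7 footprints against 57.8 and 54.9 in vector footprints, and 889 and 912 in QKI7 inputs against 930 and 888 in vector inputs. NPHP4 and MYLK2 were listed at 0 in both vector footprints. The libraries form an input and a footprint cluster, which these coefficients span, so they describe profiles and carry no test.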

How the data were processed

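Input RNA and ribosome footprints were sequenced from 1 end over 51 nt, per the labels. The authors deposited 1 table of TPM with 2 decimals for 8 libraries; STAR, RSEM 1.2.31 and the GRCh38 build are named in the submitters' processing notes, without a role, and no source says whether strand was used in counting. Of 26902 entries, 23970 matched a RefSeq symbol and 1395 an older symbol, which gave the protein-coding class. The 18783 protein-coding entries were rescaled per library to sum to 1000000, since mRNA is a small and unequal part of the deposited TPM. Genes with a mean of at least 10 over the 8 libraries (9548) were tested on log2(value + 1) with limma 3.58.1 in R 4.3.3 (lmFit, eBayes with a variance trend), in 1 fit of 4 group means that leaves 4 residual degrees of freedom. P-values were two-sided and Benjamini-Hochberg adjusted over all genes tested, with a threshold of 0.05. Log2 changes are on the log2(value + 1) scale, which understates the change of low genes.

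The 10 members and the other lists were chosen with earlier results of these data known. All members are named; from each other list at most 4 genes past the threshold per contrast, by size of change; and the 2 genes most correlated with each of the 3 members highest in inputs. Alternatives were the deposited TPM (mean of at least 1), median-of-ratios scaling, spike-in scaling of inputs, a pseudocount of 10, no filter, a filter of 30 in both library types, fits of 1 library type, no variance trend, leaving out each library and replicate blocks. The fit was tested on simulated data. FN1 overlaps ATIC, which had at most 4.04 deposited TPM in inputs and 0.67 in footprints, where FN1 itself had 0.55 to 0.70. THBS1 overlaps FSIP1 (at most 0.70 in inputs and 0.03 in footprints) and COL4A2 overlaps COL4A2-AS1 (at most 0.70 in inputs). Without strand, reads from a shared stretch cannot be told apart.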

Additional observations from a re-analysis of the deposited data

Results flagged for a closer look

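COL1A1 and COL4A2 differed in their QKI7 effect between footprints and inputs by the interaction test. COL1A1 had a difference of 1.03 (log2), with 121 and 93.4 mRNA-scaled TPM in QKI7 footprints against 45.1 and 43.6 in vector footprints, and 523 and 567 in QKI7 inputs against 499 and 444 in vector inputs. COL4A2 had a difference of 0.82, with 119 and 116 in QKI7 footprints against 71.9 and 66.1 in vector footprints, and 964 and 1029 in QKI7 inputs against 1027 and 1036 in vector inputs. Both chains, one of bone collagen and one of basement membranes, were higher in both QKI7 footprints than in both vector footprints. Limma's adjusted p over the alternatives ran from 0.0108 to 0.851 for COL1A1 and from 0.00426 to 0.256 for COL4A2, and 6 of 15 and 9 of 15 alternatives made the call.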

How the results depend on the processing

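Of the values of single members under alternatives, 546 kept their direction and side of the threshold, 25 lost and 16 gained a call, 10 reversed and 17 changed sign without a call; of those of other named genes 416 kept both, 254 lost a call and 1 reversed. Counts of members called, out of 8 tested, changed as follows. In inputs 0 were higher, against 5 on the deposited TPM and 2 in the fit of inputs alone. In footprints 4 were higher, against 2 on the deposited TPM and 0 in the fit of footprints alone; 0 were lower, against 0 to 1 when a library was left out. In translation efficiency 2 were higher, against 0 on the deposited TPM, 1 with no filter and 0 to 2 when a library was left out; 0 were lower, against 4 on the deposited TPM. In footprint minus input 0 were higher, against 2 (QKI7 cells) and 3 (vector cells) with median-of-ratios scaling and 1 (COL1A2) in each with no filter; 7 were lower in each, against 4 in each with median-of-ratios scaling. The labels do not say that a replicate number marks a shared culture, and deviations of same-numbered libraries from the group means correlated between -0.043 and 0.0043, so no shared deviation was measurable. With the replicate block 1 member was higher in translation efficiency (COL1A1, adjusted p = 0.0595, was lost) and with the replicate block by culture 0 were (adjusted p = 0.0961 for COL1A1 and 0.0714 for COL4A2); the block changed no other count of members by over 1.5 times. Values that reversed on the deposited TPM were the translation efficiencies of COL5A1 (-0.51), COL5A2 (-0.28) and HSPG2 (-0.19). Those that reversed with median-of-ratios scaling were footprint minus input of COL5A2 (0.31), FN1 (0.23), SPARC (1.33) and THBS1 (0.99) in QKI7 cells and of COL5A2 (0.32), FN1 (0.52), SPARC (1.39) and THBS1 (1.35) in vector cells. The cause of these changes was not tested. Over all genes, calls in inputs numbered 116, against 1521 in inputs alone, 2587 on the deposited TPM, 250 with the filter of 30, 27 with spike-in scaling, 2 without the variance trend and 38 to 115 leaving out a library. Calls in footprints numbered 1732, against 11 in footprints alone, 476 on the deposited TPM, 858 with the filter of 30 and 768 to 2347 leaving out a library. Calls in translation efficiency numbered 291, against 1461 on the deposited TPM, 191 with no filter, 137 and 48 with the replicate blocks and 12 to 969 leaving out a library. Read depth is unknown, and rounding alone bounds the ratio of QKI7 to vector footprint means at 0.613 to 1.71 for COL3A1 and 1.02 to 1.54 for COL1A2.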

Other observations

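Footprint minus input of other matrix genes reached above the range of the 8 tested members; each pair of values is for QKI7 cells and then vector cells. Of 13 tested other collagens, 12 and 13 were called lower in footprints by limma, where 67.7% and 67.9% of all genes were, with medians of -2.73 and -3.22 (log2) against -1.63 and -1.74 for all genes. COL27A1 had values of -3.13 and -4.54 and COL6A3, a chain of type VI collagen, -3.13 and -3.55. The 30 tested genes of signal recognition and translocation had medians of 0.43 and 0.57, with 11 and 16 called higher, against 14.8% and 15.9% of all genes, and 9 and 8 called lower, against 67.7% and 67.9%. The 2 genes named from this list are among its highest values. SEC61G, a subunit of the translocation channel, had 5.92 and 6.17, and DAD1, a subunit of the oligosaccharyltransferase, 3.72 and 4.06. Of 14 tested proteases and inhibitors, 3 and 4 were called higher and 8 and 8 lower, beside the same shares of all genes. The metalloproteinases went both ways, with MMP2 at -2.41 and -2.37 and MMP3 at 5.28 and 4.02. TIMP1, an inhibitor of metalloproteinases, had 5.11 and 4.97. Read depth and footprint position along each transcript are not in the table, and their part in these values was not tested.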
